A study of Mus musculus with 37 samples.

Results

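Gastrocnemius muscle of 6-week-old mice that lacked Nampt in skeletal muscle was compared with gastrocnemius of wild-type mice of the same age. The comparison rests on 4 of the 37 bulk RNA libraries of the series, chosen by their labels for genotype and age. The knockouts (genotype SMNKO) were HOM-20, male, sequencing pool A, and HOM-19, female, sequencing pool B. The wild types (genotype WT) were WT-16, male, pool A, and WT-17, male, pool B. Each genotype therefore had n = 2, with 1 library in each pool, and in pool B the knockout differed from the wild type in sex as well as genotype, so that genotype and sex cannot be told apart there. The labels name no other allele, treatment or strain, and they give neither the promoter that drives the recombinase nor the deleted part of Nampt. They do not say in words that each library came from a separate animal, so the p-values measure the spread between samples. That spread was estimated over all 37 libraries of the series, not from the 4 libraries of 6 weeks alone. Libraries of 2, 4 and 8 weeks (11 at each age) entered the same fit, and the effects at 4 weeks (6 wild types, 5 knockouts) and 8 weeks (5 wild types, 6 knockouts) were used to place the 6-week profile in time.

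NAMPT turns nicotinamide into nicotinamide mononucleotide, the rate-limiting step by which most tissues recycle nicotinamide into NAD. NAD carries electrons from glycolysis, the TCA cycle and fatty acid oxidation to complex I of the respiratory chain, and it is the substrate that sirtuins, PARPs and CD38 consume. Muscle has a second entry into the pool through the nicotinamide riboside kinases, of which NMRK2 is the muscle form.

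The 4 libraries held between 14510798 and 21437318 assigned counts, and ribosomal RNA took 0.184% to 1.42% of them. Levels are given as CPM, counts scaled to a common library size, after TMM scaling, always with the pool A library first and the pool B library second. The tissue label was checked against 16 skeletal muscle marker genes, all of which passed the filter on low counts. Their summed level was 283780 and 239720 CPM in the wild types and 298640 and 317590 CPM in the knockouts. Xist was at 107 CPM in HOM-19 and at most 0.0642 CPM in the other 3 libraries, and Ddx3y was at 0 in HOM-19, so all 4 libraries matched their sex labels. In bulk tissue, fewer cells of a type and less RNA per cell cannot be told apart.

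Nampt (chr12:32819545-32853349, plus strand, GRCm38) was at 218 and 201 CPM in the wild types and at 51.5 and 48.0 CPM in the knockouts. Both knockouts lay far below both wild types, and the 2 knockouts were close to each other. The log2 fold change was -2.07 (SE 0.18, edgeR adjusted p = 2.85e-09), and it ranged from -2.16 to -1.99 when single libraries were left out. An exact two-sided permutation test over the 4 libraries gave p = 0.333, the smallest that 2 against 2 allows. The knockout effect on Nampt was larger at 6 than at 4 weeks (log2 fold change -1.03 at 4 weeks, difference -1.05, SE 0.20, edgeR adjusted p = 0.00974), and at 8 weeks it was -2.04. The wild-type mean was 128 ± 19.8 CPM (SD, n = 6) at 4 weeks and 210 ± 11.7 CPM (SD, n = 2) at 6 weeks, while the knockout mean was 62.8 ± 8.64 CPM (SD, n = 5) and 49.8 ± 2.5 CPM (SD, n = 2).

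Of 16728 genes tested, 1617 (9.67%) differed between genotypes at 6 weeks (edgeR quasi-likelihood test, Benjamini-Hochberg adjusted p below 0.05), 891 of them higher in the knockout (5.33%) and 726 lower (4.34%). The rises were the larger changes: 609 of the called genes (3.64% of those tested) were over 2-fold higher and 226 (1.35%) over 2-fold lower. The median log2 fold change of all genes tested was 0.03. The number of calls depended on single libraries. It was 244 without WT-16, 286 without HOM-20, 522 without WT-17 and 1174 without HOM-19. With library sizes alone in place of TMM scaling it was 330, and in a fit of the 4- to 8-week libraries alone with labelled sex as a term it was 615.

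Each pool held 1 library of each genotype at 6 weeks. The knockout minus wild-type differences of the 2 pools had a Pearson correlation of 0.42 over all 16728 genes tested and 0.80 over the called genes. The called genes were chosen by a fit that used both pools, so their agreement between pools is in part built in by the choice. Among the 1617 called genes, 1596 had the same sign in both pools. All 4 libraries stood apart by genotype for 862 of the 891 rises and for each of the 726 falls, where 27.6% and 26.5% of all genes tested lay apart upward and downward. The called rises had a median difference of 1.47 on the log2 scale in pool A and 1.05 in pool B, and the called falls had -0.82 and -0.72. A set of 135 called rises had a pool B difference below 0.5, and 167 called falls had one above -0.5. In pool A, 64 called rises were below 0.5 and 91 called falls above -0.5.

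**Figure D1:**
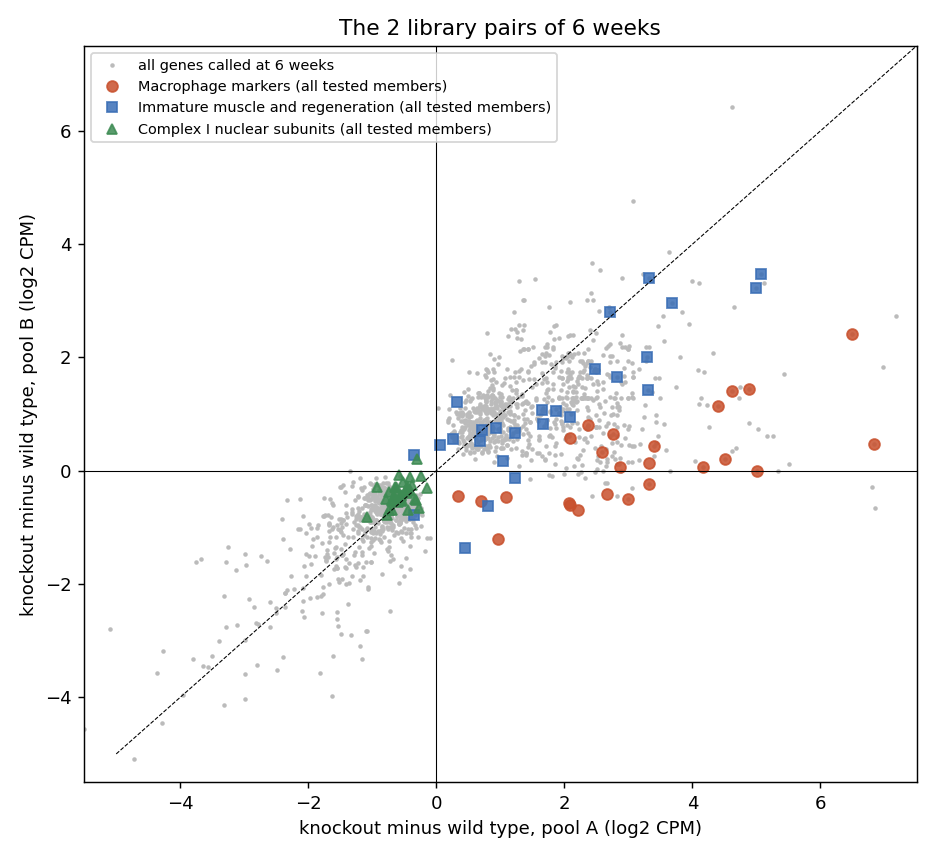
Knockout minus wild type on the log2 CPM scale in pool A (horizontal axis, HOM-20 minus WT-16) and in pool B (vertical axis, HOM-19 minus WT-17), with 1 point per gene. Grey points are the 1617 genes called at 6 weeks; macrophage markers (orange) lie along the horizontal axis, immature muscle genes (blue squares) near the diagonal, and complex I subunits (green triangles) just below 0 in both pools.

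By the rule that chose the genes described here, 118 named genes were called at 6 weeks. Of these, 23 kept their call whichever of the 4 libraries was left out, and 95 lost it without at least 1 library. The 23 were Nampt, the fetal muscle genes Myh8, Igf2, Atp1b4 and Agtr2, the imprinted genes Meg3, Mirg, Rtl1, Peg3 and Zim1, the muscle genes Ostn, Capn3 and Dach2, the polyamine enzyme gene Amd1, and Amy1, Casp12, Dcn, Dglucy, Mfn1, Polk, Shisal1, Slc40a1 and Tspan8. Meg3, Rtl1, Ostn, Amy1, Dglucy, Casp12 and Nampt also stayed below the threshold under all 15 alternatives tried, including either pool alone.

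**Figure D2:**
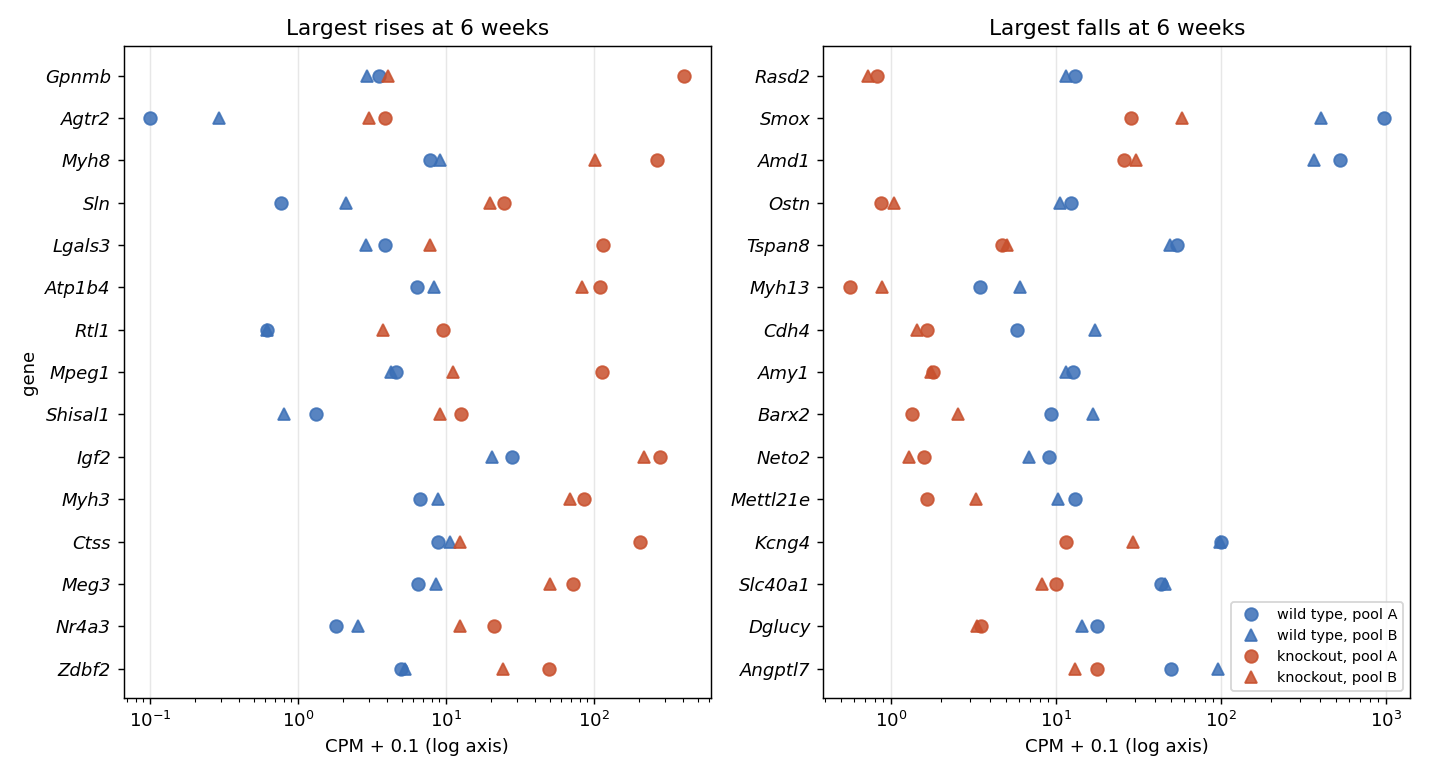
Level in each of the 4 libraries (CPM + 0.1, log axis) of the 15 largest called rises (left) and the 15 largest called falls (right), wild type in blue and knockout in orange, circles for pool A and triangles for pool B. Gpnmb, Lgals3, Mpeg1 and Ctss are far higher in the pool A knockout (112 to 405 CPM) than in the pool B knockout (3.95 to 12.2 CPM), which lies just above the wild types.

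Several genes of immature and regenerating muscle rose in both knockouts. Of the 26 genes of this list tested, 10 rose and none fell, against 5.33% and 4.34% of all genes tested, the list's median log2 fold change was 1.18, and the median was 1.44 in pool A and 0.89 in pool B. The rises included sarcomere genes that the fetus and newborn use and adult fibres switch off. Myh8, the neonatal myosin heavy chain (chr11:67277124-67308634, plus strand), was at 7.72 and 8.98 CPM in the wild types and at 264 and 101 CPM in the knockouts. Both knockouts were far above either wild type, and the pool A knockout was the higher (log2 fold change 4.55, SE 0.66, edgeR adjusted p = 0.000119). Myh3, the embryonic heavy chain, was at 6.59 and 8.73 CPM against 85.5 and 69.0 CPM, with no overlap (3.36, SE 0.78, edgeR adjusted p = 0.00749). Myl4, an embryonic and atrial light chain, was at 4.65 and 4.49 CPM against 46.3 and 18.4 CPM and also rose (2.85, SE 0.54, edgeR adjusted p = 0.00153).

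Some membrane and signalling genes known from young or denervated fibres rose as well. Chrng, the fetal gamma subunit of the acetylcholine receptor, was at 0.307 and 0.0642 CPM in the wild types and 2.63 and 1.10 CPM in the knockouts (log2 fold change 3.24, SE 0.93, edgeR adjusted p = 0.0255). Ncam1, an adhesion molecule that spreads over the fibre surface when innervation is lost, was at 11.9 and 13.2 CPM against 37.5 and 27.7 CPM (1.37, SE 0.40, edgeR adjusted p = 0.0259). For both genes each knockout stood above each wild type. Agtr2, the type 2 angiotensin receptor, had 3 counts over both wild types and 110 over both knockouts, a ratio of 40.2 with an exact 95% interval of 13.4 to 198 that covers counting error only. Atp1b4, a muscle member of the sodium pump beta family that is mainly perinatal, was at 6.23 and 8.15 CPM against 109 and 82.5 CPM (3.76, SE 0.39, edgeR adjusted p = 3.03e-07). Runx1, a transcription factor of denervated fibres, was at 5.72 and 3.34 CPM against 23.9 and 11.4 CPM (1.95, SE 0.58, edgeR adjusted p = 0.0323). Dach2, a cofactor that restrains myogenin in innervated mouse muscle, moved the other way, from 3.07 and 7.38 CPM to 0.206 and 0.316 CPM (-4.22, SE 0.72, edgeR adjusted p = 0.00044). In the list of the neuromuscular junction and denervation response, 3 of 25 tested genes rose and 1 fell (5.33% and 4.34% of all genes tested), with a median of 0.24; no rise of this list was called without HOM-20, without WT-16 or without WT-17.

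The myogenic regulators and fusion genes were not called at 6 weeks. Myog, the factor that drives differentiation of myoblasts, was at 13.5 and 17.1 CPM in the wild types and 31.97 and 15.6 CPM in the knockouts, with overlap between the groups (log2 fold change 0.61, SE 0.44, edgeR adjusted p = 0.381). Myod1 was at 9.20 and 7.96 CPM against 17.6 and 13.4 CPM (edgeR adjusted p = 0.125). Mymk, the myoblast fusion protein myomaker, was at 2.10 and 1.73 CPM against 6.91 and 3.16 CPM (1.43, SE 0.64, edgeR adjusted p = 0.146), and its partner Mymx at 0.358 and 0.321 CPM against 1.60 and 0.789 CPM (1.84, SE 0.82, edgeR adjusted p = 0.146). Both knockouts were above both wild types for Myod1, Mymk and Mymx, but by less than the test required. The count of rises in the immature muscle list was 3 without HOM-20, 4 without WT-16, 4 without WT-17 and 10 without HOM-19, and it was 0 in pool B alone and 5 with library sizes alone.

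The promoters of 3 genes that rose and of Myog, which was not called, are shown because myogenic bHLH factors bind E-boxes, and these windows let the letters be read beside the values above. They are RefSeq windows of GRCm38.p6, plus strand, from 250 bases before to 50 bases after the start of each gene. Capitals mark each match to CANNTG, a palindrome and so the same on both strands; CAGCTG is one form of it.
Chrng, chr1:87205561-87205860: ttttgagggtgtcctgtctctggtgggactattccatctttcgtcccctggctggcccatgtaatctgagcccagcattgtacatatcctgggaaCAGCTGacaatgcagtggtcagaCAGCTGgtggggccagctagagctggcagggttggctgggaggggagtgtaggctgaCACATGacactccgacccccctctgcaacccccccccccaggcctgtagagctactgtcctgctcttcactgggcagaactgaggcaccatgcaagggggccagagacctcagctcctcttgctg
Myh8, chr11:67276874-67277173: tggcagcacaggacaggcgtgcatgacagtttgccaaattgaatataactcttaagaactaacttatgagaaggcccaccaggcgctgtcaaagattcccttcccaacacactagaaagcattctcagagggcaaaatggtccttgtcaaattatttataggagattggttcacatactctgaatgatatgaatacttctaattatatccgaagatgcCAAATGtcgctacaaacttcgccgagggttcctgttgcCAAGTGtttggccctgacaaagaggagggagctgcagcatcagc
Myh3, chr11:67078050-67078349: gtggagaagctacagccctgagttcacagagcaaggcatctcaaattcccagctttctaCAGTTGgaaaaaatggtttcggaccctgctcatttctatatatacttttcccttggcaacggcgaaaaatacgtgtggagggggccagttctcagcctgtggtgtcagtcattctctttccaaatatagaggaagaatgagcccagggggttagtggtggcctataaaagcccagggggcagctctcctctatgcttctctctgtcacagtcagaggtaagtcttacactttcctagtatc
Myog, chr1:134289754-134290053: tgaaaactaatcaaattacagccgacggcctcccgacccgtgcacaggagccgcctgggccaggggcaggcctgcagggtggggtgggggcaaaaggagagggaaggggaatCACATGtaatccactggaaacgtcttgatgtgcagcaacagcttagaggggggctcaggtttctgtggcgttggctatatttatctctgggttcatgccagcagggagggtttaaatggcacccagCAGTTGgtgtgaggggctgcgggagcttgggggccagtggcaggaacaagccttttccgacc
Chrng held 3 matches, at 155, 132 and 75 bases before the start, the first 2 of them CAGCTG. Myh8 held 2, at 32 bases before and 6 bases after the start, Myh3 held 1 at 191 bases before it, and Myog held 2, at 138 and 12 bases before it. Among 32851 RefSeq windows of the same length, 72.3% held at least 1 CANNTG and 39.6% at least 2, whereas 16.3% held CAGCTG and 1.90% held it at least 2 times. Such matches describe the letters in the window and show no binding.

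Imprinted genes, which are read from 1 parental copy and many of which are fetal growth genes, included several of the largest rises. A list of 52 tested imprinted genes, assembled after 6-week values had been seen and so no independent evidence of a direction, held 13 rises and 3 falls (5.33% and 4.34% of all genes tested) and had a median log2 fold change of 0.52. Those of the Dlk1-Dio3 domain on distal chromosome 12 rose on both parental sides. Meg3, a maternally expressed long noncoding RNA (chr12:109541001-109571726, plus strand), was at 6.39 and 8.47 CPM in the wild types and at 71.7 and 50.5 CPM in the knockouts (3.05, SE 0.39, edgeR adjusted p = 1.81e-05). Rian, the host of many small nucleolar RNAs, was at 28.7 and 43.6 CPM against 231 and 201 CPM (2.57, SE 0.47, edgeR adjusted p = 0.00109), and Mirg, a host of microRNAs, at 1.84 and 1.92 CPM against 15.4 and 8.92 CPM (2.71, SE 0.35, edgeR adjusted p = 1.81e-05). All 3 noncoding transcripts separated the genotypes without overlap.

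On the paternally expressed side of the same domain, Rtl1, a gene derived from a retrotransposon and needed in fetal muscle and placenta of the mouse, was at 0.511 and 0.513 CPM against 9.44 and 3.63 CPM (log2 fold change 3.72, SE 0.51, edgeR adjusted p = 4.01e-05). Dlk1, a preadipocyte and muscle growth factor, was at 1.38 and 1.35 CPM against 14.7 and 3.79 CPM (2.78, SE 0.61, edgeR adjusted p = 0.00468). Dio3, which inactivates thyroid hormone, was near its detection limit, between 0.237 and 0.511 CPM in all 4 libraries, and was not called (-0.24, SE 1.13). Rtl1 and Meg3 overlap annotated microRNAs and other transcripts, and whether the authors' counting used strand is not given in the sources used here, so reads of Rtl1 and of its antisense partner may not be separated.

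Imprinted genes on other chromosomes moved with them. Igf2, a fetal growth factor (chr7:142650766-142666816, minus strand), was at 27.7 and 20.3 CPM in the wild types and 278 and 216 CPM in the knockouts, the latter about equal to each other (log2 fold change 3.36, SE 0.60, edgeR adjusted p = 0.00086). H19, its maternally expressed neighbour, was high in every library, at 3067 and 2409 CPM against 3842 and 5572 CPM, and was not called (0.73, SE 0.36, edgeR adjusted p = 0.192). Peg3, a zinc-finger gene, was at 32.3 and 42.7 CPM against 229 and 135 CPM (2.29, SE 0.36, edgeR adjusted p = 0.000194), and its neighbour Zim1 at 7.41 and 9.11 CPM against 45.5 and 37.8 CPM (2.35, SE 0.36, edgeR adjusted p = 0.000177). Zdbf2 (log2 fold change 2.88), Peg10 (2.20), Plagl1 (2.07), Usp29 (1.80) and the antisense transcript Kcnq1ot1 (1.72) also rose, with both knockouts above both wild types for each. The falls included Slc38a4, an amino acid transporter, at 183 and 157 CPM against 65.2 and 82.7 CPM (-1.21, SE 0.33, edgeR adjusted p = 0.0189), and Blcap (-0.55, SE 0.15, edgeR adjusted p = 0.0198). The 13 rises numbered 7 without HOM-20, 7 without WT-16, 10 without WT-17 and 13 without HOM-19.

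**Figure D3:**
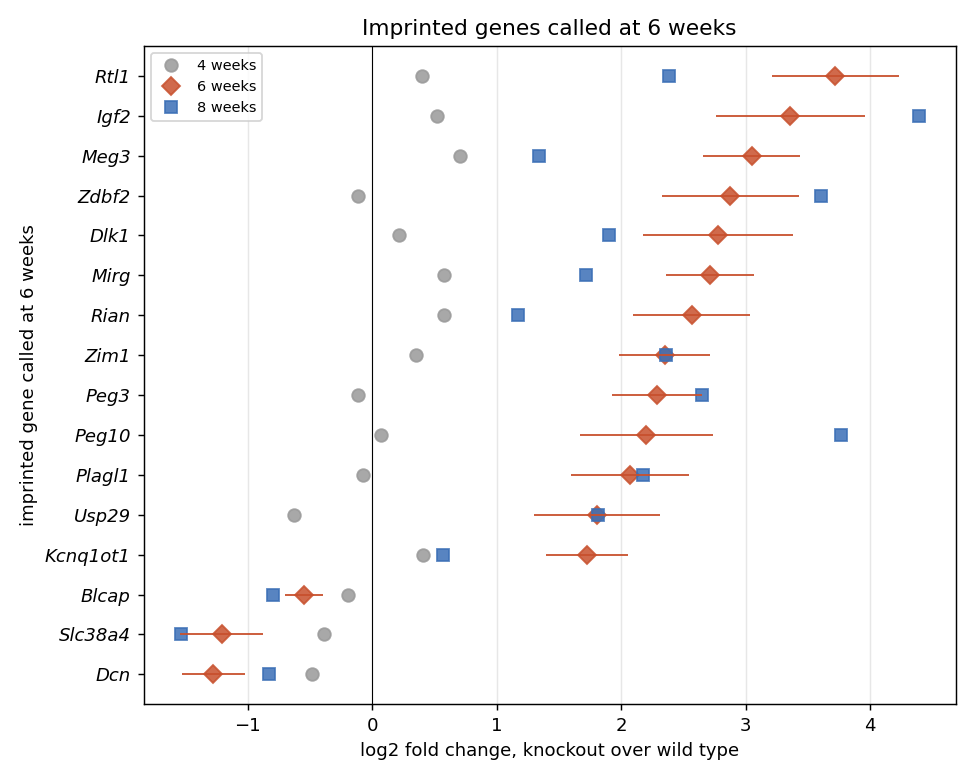
Log2 fold change, knockout against wild type, of the 16 imprinted genes called at 6 weeks (orange, bars are the SE of the fit), with the 4-week and 8-week effects of the same genes as further points. The 13 rises reach from 3.72 for Rtl1 downward, and Meg3, Rian and Mirg have larger effects at 6 than at 8 weeks.

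Amd1 and Smox of polyamine metabolism were among the largest falls. Amd1, S-adenosylmethionine decarboxylase, which supplies the aminopropyl groups for spermidine and spermine, was at 529 and 364 CPM in the wild types and 25.6 and 30.4 CPM in the knockouts (log2 fold change -4.03, SE 0.73, edgeR adjusted p = 0.00111). Smox, spermine oxidase, was at 970.0 and 402 CPM against 28.3 and 58.1 CPM (-4.05, SE 0.81, edgeR adjusted p = 0.00267). Both knockouts lay far below both wild types for each gene, and Smox varied between the wild types. The near-identical copy Amd2 fell as well (-3.67, SE 0.89, edgeR adjusted p = 0.00852) from 3.219 and 3.34 CPM, and its reads may come from Amd1. In a list of 18 polyamine genes, also assembled after values had been seen, these 3 fell and 1 rose, where 4.34% and 5.33% of all genes tested did. The median was -0.07. The riser was Atp13a3, a polyamine transporter (0.52, SE 0.16, edgeR adjusted p = 0.0387). Odc1, ornithine decarboxylase and the pathway's entry enzyme, was at 155 and 84.95 CPM against 51.8 and 76.4 CPM and was not called (-0.87, SE 0.50, edgeR adjusted p = 0.271), nor were the spermidine and spermine synthases Srm (0.09) and Sms (-0.41).

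The wild-type level of Amd1 differed by age more than its knockout level. The wild-type mean was 45.6 ± 18.2 CPM (SD, n = 6) at 4 weeks, 447 ± 116 CPM (SD, n = 2) at 6 weeks and 385 ± 300 CPM (SD, n = 5) at 8 weeks, where 2 wild types were near 61 to 65 CPM and the other 3 at 547 to 692 CPM. The knockout mean was 32.5 ± 10.1 CPM (SD, n = 5) at 4 weeks and 27.98 ± 3.40 CPM (SD, n = 2) at 6 weeks. The effect on Amd1 was larger at 6 than at 4 weeks (difference -3.53, edgeR adjusted p = 0.0261), as was that on Smox (-3.72, edgeR adjusted p = 0.0365). Smox also varied among the wild types, from 402 to 970.0 CPM at 6 weeks and from 50.8 to 735 CPM at 8 weeks.

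Ostn, which encodes the muscle-secreted peptide musclin, was at 12.3 and 10.5 CPM in the wild types and 0.774 and 0.947 CPM in the knockouts (log2 fold change -3.74, SE 0.39, edgeR adjusted p = 1.74e-07). Rasd2, a small GTPase best known from striatum, was at 12.9 and 11.5 CPM against 0.722 and 0.631 CPM (-4.14, SE 0.96, edgeR adjusted p = 0.00713). Tspan8, a tetraspanin, was at 54.0 and 49.2 CPM against 4.64 and 4.97 CPM (-3.43, SE 0.64, edgeR adjusted p = 0.00141). In these genes the 2 libraries of each genotype lay close together and the genotypes far apart. Slc40a1, the iron exporter ferroportin, was at 42.98 and 45.6 CPM against 9.90 and 8.13 CPM (-2.27, SE 0.38, edgeR adjusted p = 0.000405). Dglucy, a mitochondrial D-glutamate cyclase, was at 17.7 and 14.4 CPM against 3.40 and 3.24 CPM (-2.27, SE 0.23, edgeR adjusted p = 1.63e-07). Amy1, an alpha-amylase gene with close copies in the genome, was at 12.6 and 11.4 CPM against 1.70 and 1.66 CPM (-2.83, SE 0.40, edgeR adjusted p = 5.19e-05). Further large falls were Myh13, the extraocular myosin (-2.91), Cdh4, R-cadherin (-2.90), Barx2, a homeobox gene of myogenic cells (-2.82), and Kcng4, a modifier subunit of potassium channels (-2.38).

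Few contractile genes passed the test at 6 weeks. In the fast fibre list 1 of 20 tested genes fell and none rose, close to the 4.34% of all genes that fell, and the median was -0.23 (-0.48 in pool A, -0.02 in pool B). The fall was not called without HOM-20, without WT-16 or without WT-17. In the slow fibre list 0 of 18 were called by edgeR or DESeq2 (1 had an unadjusted p below 0.05), with a median of 0.33 (0.65 in pool A, 0.05 in pool B). Myh4, the myosin of type 2B fibres, was at 70128 and 56726 CPM in the wild types and 64567 and 64695 CPM in the knockouts (log2 fold change 0.03, SE 0.51, edgeR adjusted p = 0.984). Myh1, the type 2X myosin, was at 4572 and 7048 CPM against 3297 and 3302 CPM and fell (-0.80, SE 0.25, edgeR adjusted p = 0.038). Mb, myoglobin, the oxygen store of oxidative fibres, was at 2306 and 2611 CPM against 769 and 1011 CPM, below the wild types in both knockouts (-1.47, SE 0.39, edgeR adjusted p = 0.0157), whereas at 4 weeks its effect was 0.31 (difference -1.78). Ttn, the giant sarcomere spring, was at 44015 and 44372 CPM in the wild types and at 111840 and 110340 CPM in the knockouts (1.33, SE 0.37, edgeR adjusted p = 0.0204).

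For calcium handling, 2 of 26 tested genes rose and 1 fell, near the 5.33% and 4.34% of all genes tested, with a median of -0.09. The rises numbered 0 without HOM-20, 0 without WT-17, 1 without WT-16 and 2 without HOM-19, and the fall was lost without any 1 of the 4. Sln, sarcolipin, a peptide that uncouples the calcium pump SERCA, was at 0.664 and 1.99 CPM in the wild types and 24.7 and 19.6 CPM in the knockouts (log2 fold change 4.20, SE 1.19, edgeR adjusted p = 0.0253). Ryr3, the ryanodine receptor of young muscle, was at 1.99 and 1.67 CPM against 11.5 and 5.92 CPM (2.30, SE 0.49, edgeR adjusted p = 0.00403). Ryr1, the adult release channel, was at 3347 and 3421 CPM against 4131 and 6354 CPM (0.62, SE 0.27, edgeR adjusted p = 0.125), both knockouts above both wild types, and at 8 weeks its effect was -0.99 (difference 8 minus 6 weeks -1.61, edgeR adjusted p = 0.00453). Capn3, the muscle calpain whose loss causes a limb-girdle dystrophy in humans, was at 229 and 201 CPM against 92.2 and 118 CPM (-1.04, SE 0.18, edgeR adjusted p = 0.000509).

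Most nuclear genes of the respiratory chain and the TCA cycle had lower values in both knockouts, and few passed the test. All 36 tested nuclear subunits of complex I had a log2 fold change below 0, as did 7950 of all 16728 genes tested. In 35 of the 36 both knockouts lay below both wild types, where 26.5% of all genes tested did. The fit called 7 of them, where 4.34% of all genes tested fell. The list's median was -0.48. Ndufs1, the subunit with most of the iron-sulphur clusters, was at 519 and 631 CPM in the wild types and 311 and 391 CPM in the knockouts (-0.71, SE 0.17, edgeR adjusted p = 0.00933). Ndufs4, an accessory subunit whose loss causes Leigh syndrome in humans, was at 156 and 167 CPM against 96.2 and 104 CPM (-0.69, SE 0.20, edgeR adjusted p = 0.028). For both subunits each knockout was below each wild type. Of the nuclear subunits of complexes III to V, 2 of 38 fell, near the 4.34% of all genes tested, with a median of -0.43. That count was 0 with library sizes alone, 0 with labelled sex as a term and 6 with DESeq2. Of the TCA cycle and pyruvate genes 5 of 29 fell, with a median of -0.44. These calls were fragile: complex I had 0 calls without HOM-20, 0 without WT-16, 1 without WT-17 and 2 without HOM-19, and the TCA list had 0, 0, 3 and 3.

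The called genes of the TCA and pyruvate list included enzymes and carriers of pyruvate. Pcx, pyruvate carboxylase, was at 127 and 78.1 CPM in the wild types and 29.8 and 44.7 CPM in the knockouts (log2 fold change -1.43, SE 0.31, edgeR adjusted p = 0.00434). Mpc2, a subunit of the mitochondrial pyruvate carrier, was at 218 and 202 CPM against 114 and 122 CPM (-0.84, SE 0.21, edgeR adjusted p = 0.0117), and Pdha1 of the pyruvate dehydrogenase complex also fell (-0.71, SE 0.17, edgeR adjusted p = 0.00927). In glycolysis and glycogen, 2 of 26 genes fell and 1 rose (median -0.47), where 4.34% and 5.33% of all genes tested did. The falls were Pfkfb1 (-1.40), which makes the activator of phosphofructokinase, and Slc2a4, the insulin-responsive glucose transporter (-0.84). The rise was Hk1, the hexokinase of non-muscle and young tissue (0.86). In fatty acid oxidation and uptake, 0 of 34 genes were called by edgeR or DESeq2, 3 had an unadjusted p below 0.05, all lower, and the median was -0.18.

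Mitochondrial maintenance genes gave scattered calls. Mfn1, which fuses outer membranes, was at 216 and 243 CPM in the wild types and 107 and 133 CPM in the knockouts (log2 fold change -0.93, SE 0.14, edgeR adjusted p = 0.000146). Sod2, the superoxide dismutase of the matrix, was at 348 and 355 CPM against 179.8 and 229 CPM (-0.79, SE 0.15, edgeR adjusted p = 0.00132), while Ucp2, a carrier that lowers the membrane potential, was at 7.87 and 11.9 CPM against 43.6 and 28.3 CPM (1.87, SE 0.39, edgeR adjusted p = 0.00305). No overlap was seen for these 3 genes. In the biogenesis list Tfb2m, a mitochondrial transcription factor, fell (-0.73) and Ppargc1b, a coactivator, rose (0.80). The messenger RNAs of the mitochondrial genome were not called (0 of 8 by edgeR or DESeq2 and 0 at an unadjusted p below 0.05, median 0.38), and mt-Co1 and mt-Nd5 pointed opposite ways (-0.45 and 0.90). Another 5 messenger RNAs of the mitochondrial genome were not tested. Mitochondrial transcripts made up 7.43% and 8.05% of counts in the wild types and 9.27% and 10.5% in the knockouts. The summed level of the messenger RNA list went the other way. It was 29261 and 32399 CPM in the wild types and 23228 and 29073 CPM in the knockouts.

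A trend with gene length ran through the 6-week effect. When 11215 protein-coding genes were ordered by length in 5 bins of 2243, the median log2 fold change went from -0.17 in the shortest bin to 0.11 in the longest, and the share that rose went from 1.61% to 9.90%. A rank correlation with gene length was taken across the genes of each library, as a description. At 6 weeks it was -0.263 and -0.117 in the wild types and 0.0596 and 0.0856 in the knockouts. Libraries of the same genotype also spread widely at 8 weeks, from -0.160 to 0.108 in wild types and from -0.209 to 0.172 in knockouts. The part of gene length in the lower values of the mostly short respiratory genes and in the rise of Ttn was not tested.

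The NAD pathway beyond Nampt moved little. Over all genes tested, 5.33% rose and 4.34% fell, the shares to set beside each list count of this paragraph. Of 15 genes of NAD synthesis and salvage, 1 rose and 1 (Nampt) fell, with a median of -0.09. The riser was Naprt, which starts NAD synthesis from nicotinic acid and overlaps Eef1d in the annotation, at 4.24 and 3.85 CPM in the wild types and 8.20 and 8.68 CPM in the knockouts (log2 fold change 1.05, SE 0.26, edgeR adjusted p = 0.0093). Nmrk2, the muscle riboside kinase, was at 169 and 109.5 CPM against 282 and 638 CPM, higher in both knockouts but far apart between them (1.76, SE 0.68, edgeR adjusted p = 0.0929), with effects of 4.03 at 4 weeks and 1.98 at 8 weeks. Among 26 NAD-consuming enzymes 1 rose and 3 fell: Parp4 (0.87) against Art3, a muscle ADP-ribosyltransferase family member (-1.15), Sirt3, the matrix deacetylase (-0.84), and Tnks2 (-0.45). The integrated stress response list had 2 rises and 1 fall in 32 genes (median 0.07), the rises being Asns, asparagine synthetase (1.27), and Mthfd2, a mitochondrial folate enzyme (1.03), for which the pool B knockout at 5.84 CPM overlapped the wild types at 6.08 and 4.68 CPM.

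Cell death genes included a few separate changes, with 1 rise and 3 falls in 27 tested, against 5.33% and 4.34% of all genes tested. Casp12, a caspase linked to the endoplasmic reticulum in mice, was at 21.9 and 29.4 CPM in the wild types and 6.24 and 5.05 CPM in the knockouts (log2 fold change -2.16, SE 0.31, edgeR adjusted p = 5.19e-05). Bcl2, which restrains mitochondrial apoptosis, was at 17.1 and 10.8 CPM against 6.09 and 5.37 CPM (-1.28, SE 0.27, edgeR adjusted p = 0.00336). Casp1, the caspase of the inflammasome, was at 0.409 and 0.642 CPM against 2.84 and 1.74 CPM (2.10, SE 0.50, edgeR adjusted p = 0.00755). In each of these the genotypes lay apart. Of 26 cell cycle genes 1 was called, Ube2c (1.35), whose locus overlaps the abundant muscle gene Tnnc2 on the other strand; Top2a, a topoisomerase of dividing cells, was at 8.74 and 14.6 CPM against 17.9 and 8.68 CPM (-0.01, SE 0.75, edgeR adjusted p = 0.998).

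Macrophage genes were high in 1 of the 2 knockouts. The summed level of the 25 tested markers was 209.7 and 242 CPM in the wild types, 1716 CPM in HOM-20 and 208 CPM in HOM-19, so that the pool B knockout lay below both wild types. The fit called 14 of the 25 higher, against 5.33% of all genes tested, and none lower, with a median of 2.00, but the median was 2.86 in pool A and 0.07 in pool B. The calls numbered 0 without HOM-20, 1 without WT-16, 7 without WT-17 and 19 without HOM-19, and 0 in pool B alone. HOM-19 and HOM-20 differ in sex and pool as well as in animal or sample, and these cannot be told apart. At 4 weeks, 7 of the 25 markers were called higher and 0 lower (median 0.90), where 2.46% of all genes tested rose.

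The difference between the 2 knockouts was large for single genes. Gpnmb, a lysosomal glycoprotein, was at 3.42 and 2.82 CPM in the wild types, 405 CPM in HOM-20 and 3.95 CPM in HOM-19. Itgax, the integrin CD11c, was at 0.562 and 0.385 CPM against 60.6 and 2.53 CPM. Trem2, a lipid-sensing receptor, was at 0.971 and 0.513 CPM against 22.8 and 1.26 CPM. HOM-19 was above the wild types for all 3, but by far less than HOM-20. Mmp12, macrophage elastase, was at 0.409 and 0.321 CPM against 65.5 and 1.42 CPM, and Spp1, osteopontin, at 1.94 and 2.25 CPM against 230.2 and 1.82 CPM, where HOM-19 lay below both wild types. The cytokine receptor gene Il7r had 0 counts summed over both wild types and 319 summed over both knockouts. That sum is at least 117-fold higher against a floor of 3 counts over the group. It does not tell how the counts were divided between HOM-20 and HOM-19, and so shows no rise in both.

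Some macrophage markers that were not called are given here, with the complement list's C1qb, and these genes too were highest in HOM-20. Adgre1, the F4/80 antigen, was at 8.74 and 12.2 CPM in the wild types and 37.2 and 8.13 CPM in the knockouts (log2 fold change 1.02, SE 0.48, edgeR adjusted p = 0.165), and C1qb, a complement subunit, at 13.95 and 17.5 CPM against 46.9 and 16.8 CPM (0.93, SE 0.36, edgeR adjusted p = 0.0932). Mrc1, the mannose receptor, was at 43.4 and 62.3 CPM in the wild types and 70.2 and 42.8 CPM in the knockouts (0.06, SE 0.26, edgeR adjusted p = 0.921), and Cd163 at 15.4 and 14.6 CPM against 19.5 and 10.7 CPM (0.02, SE 0.28, edgeR adjusted p = 0.979). Csf1r, the receptor on which macrophages depend, was at 32.1 and 35.995 CPM against 68.5 and 26.1 CPM (0.42, SE 0.34, edgeR adjusted p = 0.448). All 5 overlapped between genotypes through HOM-19. At 8 weeks the effects were 1.501 for Mrc1 and 1.85 for Csf1r, and both were larger than at 6 weeks (differences 1.44 and 1.43, edgeR adjusted p = 0.0101 and 0.0449). Of 29 chemokines, cytokines and receptors 4 rose and 1 fell at 6 weeks (median 1.15), with 0 rises without HOM-20. Cxcl14, the one that fell, is made by muscle and stroma and was at 65.5 and 41.8 CPM against 17.02 and 16.5 CPM (-1.66, SE 0.35, edgeR adjusted p = 0.00378). Over all genes tested, 5.33% rose and 4.34% fell at 6 weeks.

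Among 27 interferon-induced genes tested, 3 rose and none fell (median 0.34), with 0 rises without HOM-20, 0 without WT-17, 2 without WT-16 and 4 without HOM-19. Irf7, the regulator of the interferon response, was at 7.31 and 5.20 CPM in the wild types and 17.4 and 14.1 CPM in the knockouts (log2 fold change 1.33, SE 0.31, edgeR adjusted p = 0.00581). Oas2, a sensor of double-stranded RNA, was at 1.64 and 0.834 CPM against 5.93 and 3.39 CPM (1.90, SE 0.47, edgeR adjusted p = 0.00955), and Stat2 also rose (0.77, SE 0.21, edgeR adjusted p = 0.0192). The knockouts stood above the wild types for all 3. Over all genes tested, 5.33% rose and 4.34% fell. The list as a whole was high in 1 knockout: its summed level was 408 and 415 CPM in the wild types, 762 CPM in HOM-20 and 384 CPM in HOM-19. Its median was 0.51 in pool A and 0.19 in pool B.

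Markers of fibroblasts and tendon included falls. Of 16 fibroblast markers 3 fell and none rose (median -0.31), where 4.34% of all genes tested fell, and their summed level was 3083 and 3143 CPM in the wild types against 1803 and 1757 CPM in the knockouts. Gsn, gelsolin, which severs actin filaments, was at 1129 and 1091 CPM against 411 and 498 CPM (log2 fold change -1.29, SE 0.29, edgeR adjusted p = 0.00469), and Dcn, decorin, which binds collagen, at 644 and 666 CPM against 279 and 262 CPM (-1.28, SE 0.26, edgeR adjusted p = 0.00209). Of 9 tendon markers 3 fell (median -0.90): the keratan sulphate proteoglycans Kera (-1.83) and Fmod (-1.27) and the matrix protein Comp (-1.48). Aqp1, the water channel of capillary endothelium, was at 392 and 412 CPM against 123 and 218 CPM (-1.26, SE 0.21, edgeR adjusted p = 0.000423), the 1 call among 16 endothelial markers, a share near that of all genes. The tendon falls numbered 0 without HOM-20, 0 without WT-16, 0 without WT-17 and 1 without HOM-19. The fibroblast falls numbered 1 without HOM-20, 1 without WT-16, 3 without WT-17 and 3 without HOM-19.

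Several cell types gave no call at 6 weeks. By edgeR and DESeq2 none of 14 Schwann cell and nerve markers was called (1 had an unadjusted p below 0.05, median 0.37). By the same tools none of 12 adipocyte markers, 9 erythrocyte markers or 8 tested neutrophil markers was called, and 1, 0 and 2 of them had an unadjusted p below 0.05. In the extracellular matrix list 2 of 36 genes rose and 2 fell (median -0.01), near the 5.33% and 4.34% of all genes tested. At 8 weeks 21 rose and 1 fell (median 0.75), where 26.2% and 26.3% of all genes tested did.

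The 6-week effects were set beside those of the other ages. The numbers of libraries differ between ages, so sizes rather than counts are given, and a set of genes chosen at 1 age has its size at that age fixed in part by the choice. For the sets chosen at 8 weeks, the fold changes at 2, 4 and 6 weeks played no direct part in the choice. Libraries of all ages did enter the filter, the pool term and the estimate of spread that the calls rest on. The 4385 genes that rose at 8 weeks had a median log2 fold change of -0.04, 0.13, 0.45 and 0.97 in order of age from 2 to 8 weeks, and 83.9% of them were above 0 at 6 weeks. The 4405 genes that fell at 8 weeks had medians of -0.03, -0.14, -0.32 and -0.65, and 81.8% were below 0 at 6 weeks. Of all 16728 genes tested, 8778 were above 0 at 6 weeks and 7950 below. The 6-week median of the 8-week rises was 0.25 without HOM-20 and 0.56 without HOM-19, and that of the 8-week falls was -0.26 and -0.41. With library sizes alone, which also changes which genes are called at 8 weeks (10718 rises and 501 falls), these medians were 0.14 and -0.88. The 412 genes that rose at 4 weeks had a median of 0.90 then and 0.45 at 6 weeks, and the 534 that fell had medians of -0.55 and -0.44.

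Most genes called at 6 weeks were also called at 8 weeks and few at 4 weeks. Of the 891 rises, 550 were called in the same direction at 8 but not 4 weeks, 68 at both, 13 at 4 but not 8 weeks and 260 at neither. Of the 726 falls, 475 were called at 8 but not 4 weeks, 147 at both, 13 at 4 but not 8 weeks and 91 at neither. The background for such overlaps was a call of 26.2% of genes as rises and 26.3% as falls at 8 weeks, and of 2.46% and 3.19% at 4 weeks (5.66% of genes in either direction, against 52.5% at 8 weeks). The 6-week rises had a median of 0.27 at 4 weeks, 1.41 at 6 weeks and 0.94 at 8 weeks. The 6-week falls had medians of -0.22, -0.76 and -0.75 at the same ages. The 6-week values are from the age at which these genes were chosen.

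**Figure D4:**
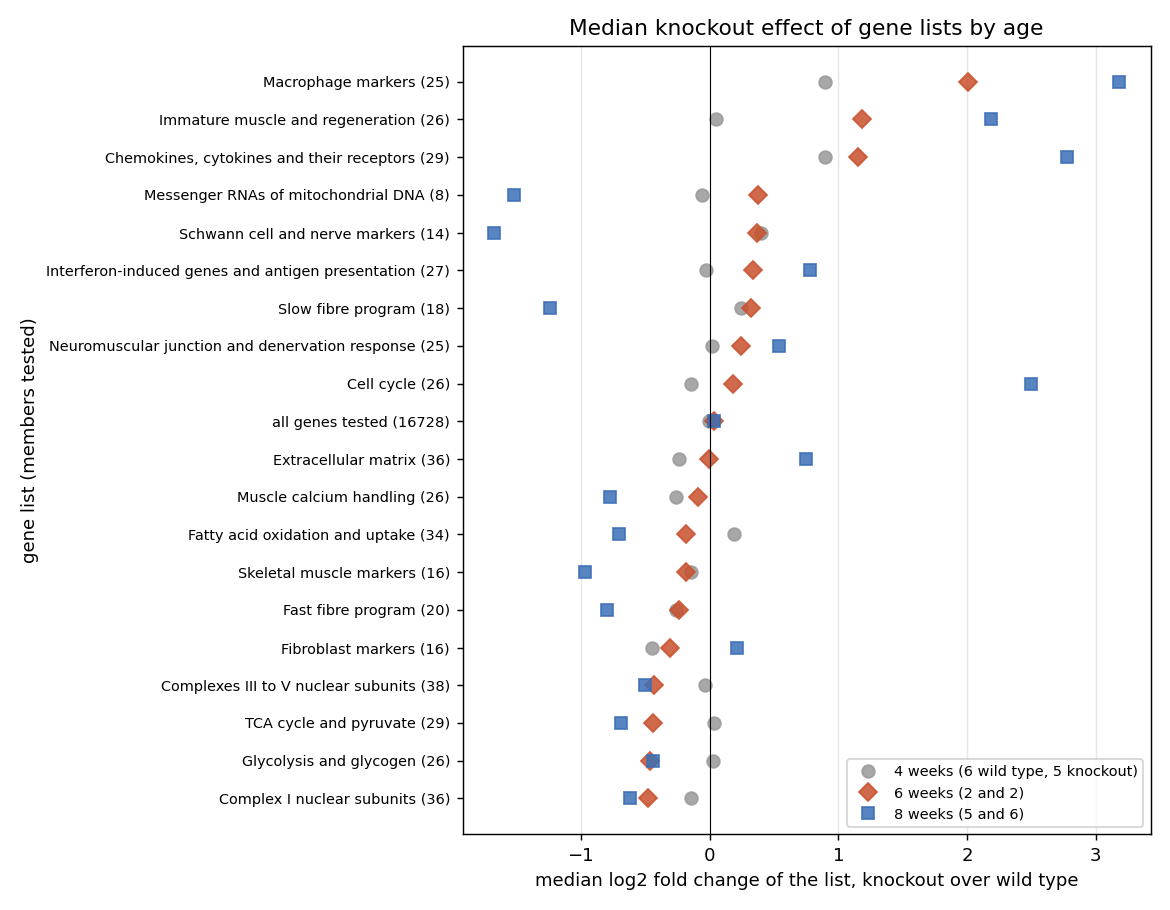
Median log2 fold change, knockout against wild type, of 19 gene lists (number of tested genes in brackets) and of all genes at 4 weeks (grey circles), 6 weeks (orange diamonds) and 8 weeks (blue squares). Immature muscle genes have medians of 0.05, 1.18 and 2.18 at the 3 ages and macrophage genes 0.90, 2.00 and 3.18, complex I genes are at -0.48 and -0.62 at 6 and 8 weeks, and cell cycle genes go from 0.18 to 2.5.

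A test of the difference itself called 152 genes between the 6-week and 4-week effects (0.909%) and 543 between 8 and 6 weeks (3.25%). Of all genes tested, 0.52% had a higher and 0.389% a lower effect at 6 than at 4 weeks. A higher effect at 8 than at 6 weeks was called for 1.47%. Genes chosen by such a difference have their effects at the ages compared fixed in part by the choice. Of the 87 genes with a higher effect at 6 than at 4 weeks, 85 were called rises at 6 weeks and 66 at 8 weeks, and their medians at 4, 6 and 8 weeks were -0.13, 1.35 and 1.12. The largest were Agtr2 (difference 5.11, edgeR adjusted p = 0.00435), Myh8 (4.19, edgeR adjusted p = 0.00472), Rtl1 (3.32, edgeR adjusted p = 0.00589), Shisal1 (3.05, edgeR adjusted p = 0.0226), Zdbf2 (2.99, edgeR adjusted p = 0.0181) and Igf2 (2.84, edgeR adjusted p = 0.0272). Of the 65 with a lower effect at 6 weeks, 52 were called falls at 6 weeks; Ostn led in p (-3.19, edgeR adjusted p = 0.000814), and Fkbp5, a glucocorticoid-induced chaperone, went from 1.44 at 4 weeks to -1.18 at 6 weeks (difference -2.62, edgeR adjusted p = 0.0266). The count of 152 was 1 without HOM-20, 18 without WT-16, 18 without WT-17, 168 without HOM-19 and 0 in pool B alone, where 1546 genes had an unadjusted p below 0.05.

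Between 6 and 8 weeks, 246 genes had a higher effect at 8 weeks, of which 229 were rises at 8 weeks and 4 at 6 weeks, with medians of 0.03, -0.04 and 1.19 at 4, 6 and 8 weeks. They included myoblast fusion and proliferation genes: Mymk (difference 5.08, edgeR adjusted p = 0.004), Top2a (3.68, edgeR adjusted p = 0.0394), Cdc20 (3.43), Cdk1 (3.34) and Ckap2 (3.18), together with Myog (2.73, edgeR adjusted p = 0.00671). This set and the set with a lower effect were chosen by the difference, which in part fixes their 6- and 8-week effects. The 297 with a lower effect at 8 weeks (1.78% of genes tested) had medians of -0.09, 0.23 and -0.82 at the same ages. Of these 297, 255 were falls at 8 weeks and 6 at 6 weeks. Ppp1r1a, an inhibitor of protein phosphatase 1, was among the largest (-2.85, edgeR adjusted p = 0.00208). At 8 weeks 22 of 26 immature muscle genes and 23 of 26 cell cycle genes rose, against 26.2% of all genes tested. The count of 543 was 3 without HOM-19, 49 without WT-17, 159 without WT-16 and 890 without HOM-20, and both wild types of pool A at 8 weeks are rich in ribosomal RNA.

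**Figure D5:**
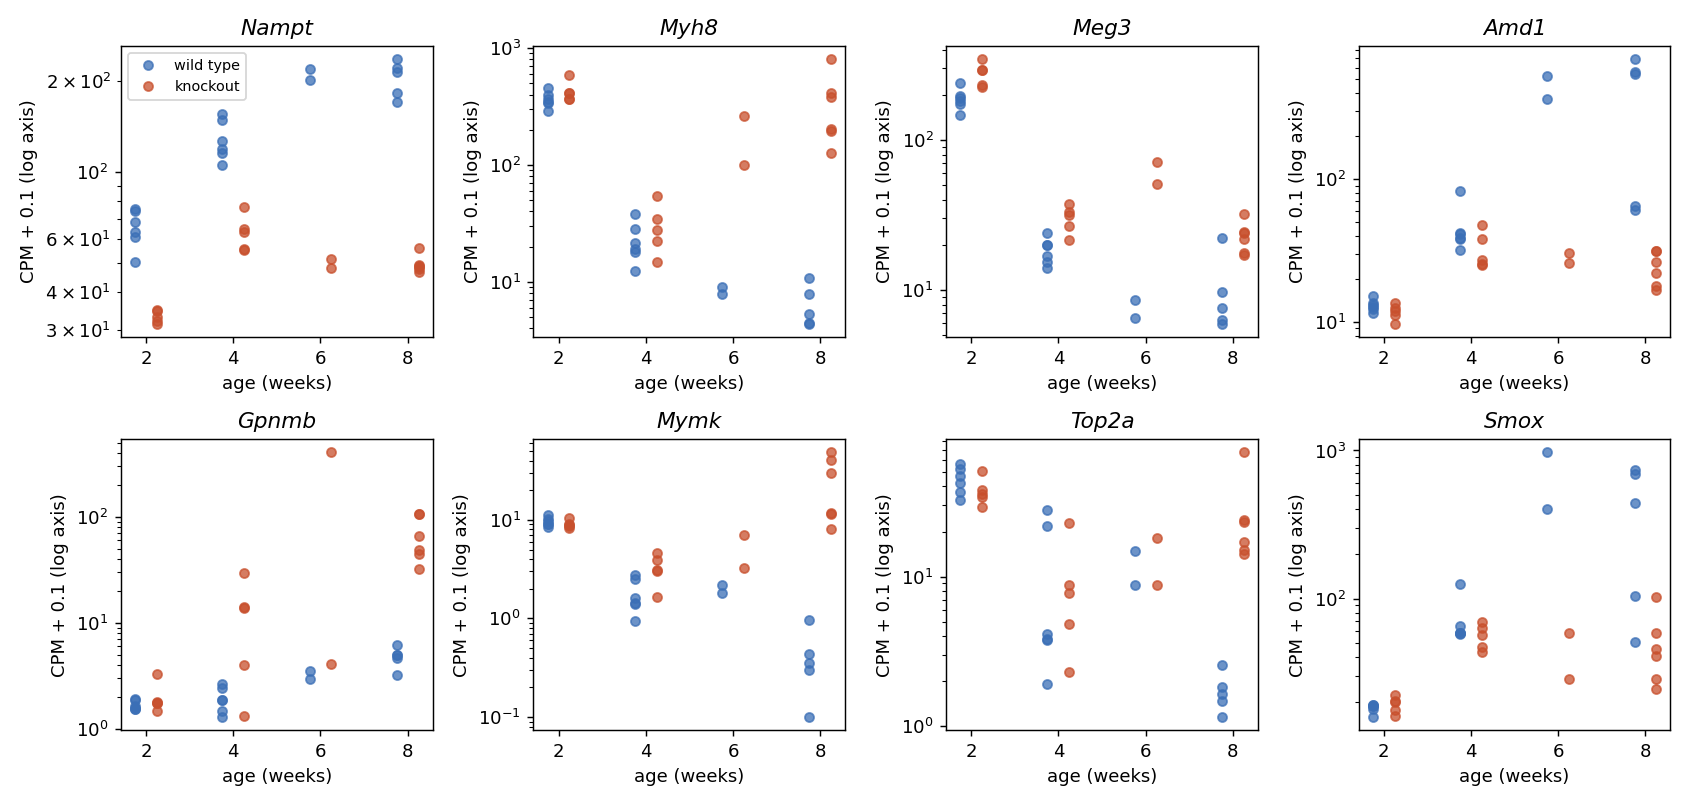
Level in every library (CPM + 0.1, log axis) against age in weeks for Nampt, Myh8, Meg3, Amd1, Gpnmb, Mymk, Top2a and Smox, wild type in blue and knockout in orange. Myh8, Meg3, Amd1 and Smox separate the genotypes at 6 weeks. At 4 weeks Gpnmb ranges from 1.20 to 29.3 CPM in the knockouts and from 1.19 to 2.56 CPM in the wild types. Gpnmb is high in 1 of the 2 knockouts at 6 weeks and in all 6 at 8 weeks. Mymk separates narrowly at 6 weeks and widely at 8 weeks, and Top2a separates at 8 weeks.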

How the data were processed

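The series measured total RNA of mouse gastrocnemius in 37 libraries. Per the labels' protocols, RNA was extracted with RNeasy columns, and stranded total-RNA libraries were made after ribosomal RNA depletion and sequenced as paired reads of 38 bases. The deposited table holds raw counts per gene, made by the authors. Per the submitters' processing notes the tools were STAR 2.5.2b, featureCounts 1.5.2 and edgeR 3.22.0 with build mm10. The roles of these tools, the annotation and the strand setting of the counting are not given in the sources used here.

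From the deposited counts, genes were filtered with filterByExpr (minimum count 10, minimum total 15), which left 16728 genes; a few of these entered all fits and list counts but are not reported here by name. Genes left out held at most 0.134% of a library's counts. Libraries were scaled by TMM and fitted in edgeR 4.0.16 (R 4.3.3) with the robust quasi-likelihood F-test over all 37 libraries, with 8 groups of genotype and age and a pool term (28 residual degrees of freedom). Contrasts were the knockout effect at each age and its differences between ages, with Benjamini-Hochberg adjustment over all genes and a threshold of 0.05. Differences within a pool are of log2 CPM with a prior count of 2. Since fitted fold changes of genes near 0 counts depend on the prior, ratios of summed counts with exact 95% intervals, which cover counting error only, are given for such genes. The fit was tested on simulated data. Chi-square per degree of freedom between replicates was 34.2 in wild type and 49.3 in knockout, so no library was a repeat of another.

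Gene names and positions come from GENCODE vM21 (GRCm38), which matched 50462 of 50686 identifiers, and promoters from RefSeq (GRCm38.p6). Members and lists were chosen with earlier results of these data known; the imprinted and polyamine lists were added after 6-week values were seen. Named genes were Nampt, the 15 largest rises and falls at 6 weeks that agreed in sign between pools and had a mean log2 CPM no lower than 1, the 6 largest differences each way between ages, and from each list the 4 genes with the smallest p plus members needed to say what did not pass. Alternatives were RLE scaling, library sizes alone, no filter, a fit that omits pool, either pool by itself, only the ages compared, DESeq2 1.42.0, labelled sex as a term, leaving out the 5 libraries rich in ribosomal RNA or the 3 that differ from their sex label, and leaving out each library. The spread used to judge a shifted median is the SD over the 4 knockout and wild-type library pairs, chosen after seeing the data; these pairs share libraries.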

Additional observations from a re-analysis of the deposited data

Results flagged for a closer look

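Among 211 genes examined, 56 differences of the knockout effect between ages passed edgeR's test of the difference itself, 31 between 6 and 4 weeks and 25 between 8 and 6 weeks; the values are log2 fold changes at the later age minus those at the earlier. Higher at 6 than at 4 weeks were the muscle and membrane genes Agtr2 (5.11), Myh8 (4.19), Atp1b4 (2.81), Myl4 (2.69), Shisal1 (3.05) and Lmod1 (1.93), the imprinted genes Rtl1 (3.32), Zdbf2 (2.99), Igf2 (2.84), Peg3 (2.40), Meg3 (2.34), Mirg (2.13) and Zim1 (2.00), and Irf7 (1.62), Ube2c (1.5) and Sntb1 (1.17).

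Lower at 6 than at 4 weeks were Smox (-3.72), Amd1 (-3.53), Ostn (-3.19), Fkbp5 (-2.62), Clu (-2.13), Mfsd4b1 (-1.95), Mb (-1.78), Casp12 (-1.75), Bcl2 (-1.65), Npc1 (-1.49), Aqp1 (-1.44), Dglucy (-1.41), Nampt (-1.05), Pck2 (-0.97) and Mfn1 (-0.68). Clu was also called at 6 weeks (log2 fold change -1.39, edgeR adjusted p = 0.0328), with an effect of 0.74 at 4 weeks.

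Higher at 8 than at 6 weeks were the fusion and differentiation genes Mymk (5.08), Mymx (4.98) and Myog (2.73). So were the neuromuscular junction gene Musk (1.30) and the division genes Top2a (3.68), Cdc20 (3.43), Cdk1 (3.34) and Ckap2 (3.18). The macrophage genes Adgre1 (2.15), C1qb (1.92), Mrc1 (1.44) and Csf1r (1.43) were also higher at 8 weeks. The same held for C1qtnf3 (3.05), Cxcl14 (2.44), Pck2 (1.41) and Hk1 (0.94). Lower at 8 than at 6 weeks were Rp1 (-4.52), Myh7b (-3.21), Ugt8a (-3.15), Fer1l6 (-2.87), Ppp1r1a (-2.85), the myelin gene Mbp (-2.52), Lmod1 (-2.17), Meg3 (-1.71) and Ryr1 (-1.61).

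In 5 of 32 groups of 8 plotted genes, 1 library lay far from the rest of its group; chance alone gives such a library in about 1 group in 20. They were Nampt in the 8-week knockout HOM-43 (56.0 CPM, next 49.0), Meg3 in the 8-week wild type WT-35 (22.2 CPM, next 9.56), Amd1 in the 4-week wild type WT-4 (82.1 CPM, next 41.9), Smox in the same library (125 CPM, next 65.0) and Top2a in the 8-week knockout HOM-39 (67.5 CPM, next 23.9). WT-35 and WT-4 are 2 of the 5 libraries rich in ribosomal RNA. The 6-week groups, with 2 libraries each, could not be examined this way.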

How the results depend on the processing

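No paired analysis was possible because library numbers are unique over all groups. The counts of calls depended on the setting. The 6-week count of 1617 genes became 330 with library sizes alone (238 higher, 92 lower, 72.1% higher), 1067 with no filter (545, 522), 388 in pool A alone (245, 143), 96 in pool B alone (46, 50), 584 with only the ages compared (345, 239), 615 with labelled sex as a term in the 4- to 8-week libraries alone (379, 236; the 2-week libraries are left out of each fit with sex, and these 2 choices were not separated), 484 at an adjusted p below 0.01 (262, 222) and 835 at more than 2-fold (609, 226). Leaving out 1 library gave 244 to 1174, with 94 to 754 rises and 106 to 420 falls, and 38.5% were rises without WT-16. DESeq2 called 2037 (1564 shared), RLE scaling 1598 (1563 shared). Nampt stayed between -2.16 and -1.99.

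The 4-week count of 946 was 120 with library sizes alone, 562 with no filter, 9 in pool B alone, 194 with only the ages compared, 97 with sex as a term and no 2-week libraries, 303 without the rRNA-rich libraries, 474 without those that differ from their sex label, and 345 to 1598 without 1 library. The 8-week count of 8790 (4385 higher, 4405 lower) was 11219 with library sizes alone (10718 higher, 501 lower), 4286 in pool A alone, and 7862 to 8992 without 1 library. The 152 differences of 6 minus 4 weeks were 13, 80, 0 and 40 under the first 4 of these alternatives, 389 with DESeq2, 1 with sex, 308 without the rRNA-rich libraries and 1 to 404 without 1 library. The 543 differences of 8 minus 6 weeks were 2128 with library sizes alone, 229 with no filter, 0 in pool A alone (1967 at an unadjusted p below 0.05), 0 with only the ages compared (2167), 0 with sex (1613), 1050 with DESeq2, 357 without the rRNA-rich libraries and 3 to 890 without 1 library. The cause of these shifts was not tested.

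The 6-week median of genes that rose at 8 weeks (0.45) was 0.14 with library sizes alone and 0.25 to 0.56 without 1 library, and that of genes that fell (-0.32) was -0.88 and -0.41 to -0.26, and -0.54 in pool A alone. For genes that rose at 4 weeks (0.45) it was 0.38 with RLE, 1.16 with library sizes alone, 0.55 in pool A, 9.34 in pool B (a set of at most 9 genes), 0.32 with only the ages compared, 0.65 with sex, 0.32 without the rRNA-rich libraries and 0.26 to 0.74 without 1 library. For genes that fell at 4 weeks (-0.44) it was -0.93 with library sizes alone, -0.55 with no filter, -0.31 in pool A, -1.75 in pool B, -0.69 with only the ages compared, -0.90 with sex, -0.51 without the rRNA-rich libraries and -0.60 to -0.39 without 1 library.

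Signs turned in pool B alone for Npc2 (-0.0608), Plin2 (-0.211), Lonp1 (0.0024), Spp1 (-0.31), C1qb (-0.0636), Gzma (-0.658), Nkg7 (-0.279), Egr2 (-0.0464) and Hba-a1 (0.413), and without HOM-20 for Npc2, Plin2, Gzma and Hba-a1. Leaving out 1 library gave -0.0372 to 0.991 for Npc2, -0.220 to 0.929 for Plin2, -0.522 to 2.97 for Gzma and -1.24 to 0.0585 for Hba-a1. List medians turned in pool B alone for dystrophin complex (-0.0267), circadian (0.0438), neutrophil (0), lymphocyte (0) and skeletal muscle genes (0.0069), with only the ages compared for oxidative stress (0.0431) and lymphocyte genes (-1.35), and without WT-16 for erythrocyte genes (-0.727 to 0.0505 without 1 library).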
